A study of Mus musculus with 35 samples.

Results

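A set of 9 genes known as markers of glomerular parietal cells, renal progenitors or injured kidney epithelium was followed in sorted mouse podocytes: Cd44, Pax2, Pax8, Sox9, Prom1, Cd24a, Lcn2, Clu and Havcr1. They were picked by name, and all 9 were found among the 33292 gene identifiers of the deposited expression table, whose unit is TPM (reads per gene scaled by length and by the total of the sample). RNA was sequenced from podocytes of 35 mice that carried a podocyte-specific rtTA, the tetO::Cre and the mTmG transgenes, were 7 to 10 weeks old and drank 2 mg/ml doxycycline for 7 days. Doxycycline switched on Cre only in cells in which rtTA was made, and Cre removed a floxed Lmx1b allele and turned on a green membrane protein by which the podocytes were sorted. The WT group (Lmx1b+/lox) therefore kept 1 intact Lmx1b allele and was itself heterozygous for the loss, whereas H77L mice (Lmx1bH77L/lox) and C118F mice (Lmx1bC118F/lox) kept only an allele with an amino acid exchange in a LIM domain. Each genotype received either the proteasome inhibitor bortezomib (0.3 μg per g body weight every other day) or its solvent DMSO, with 6 mice in every group except bortezomib-treated C118F, which had 5. Sorting selected cells by recombination and not by a podocyte protein, and the sex of the mice is not given in the sources used here.

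Parietal cells line Bowman's capsule opposite the podocytes, and the transcription factors PAX2 and PAX8 are standard marks of them. When they are activated in glomerular disease they take up CD44, a receptor for hyaluronan, and cells of the capsule with CD133 (the product of Prom1) and CD24 have been described as renal progenitors. Clusterin (Clu), lipocalin-2 (Lcn2, also NGAL), kidney injury molecule 1 (Havcr1) and SOX9 are known for their induction in injured tubular epithelium.

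In these libraries the 9 genes did not behave as 1 block. Clu and Pax8 were higher in podocytes of both knock-in lines than in WT podocytes under DMSO. Cd44 was called higher too, but a filter on low levels let it into these tests only through the knock-in mice, so they add no support. In H77L its call was also lost when the mouse number of the sample titles was taken into account (limma's adjusted p 0.0942). Cd24a did not pass in any comparison of whole groups. Pax2, Sox9, Prom1, Lcn2 and Havcr1 stayed so low that no group had all of its mice above 1 TPM. Under bortezomib Clu remained far above WT in both lines.

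**Figure D1:**
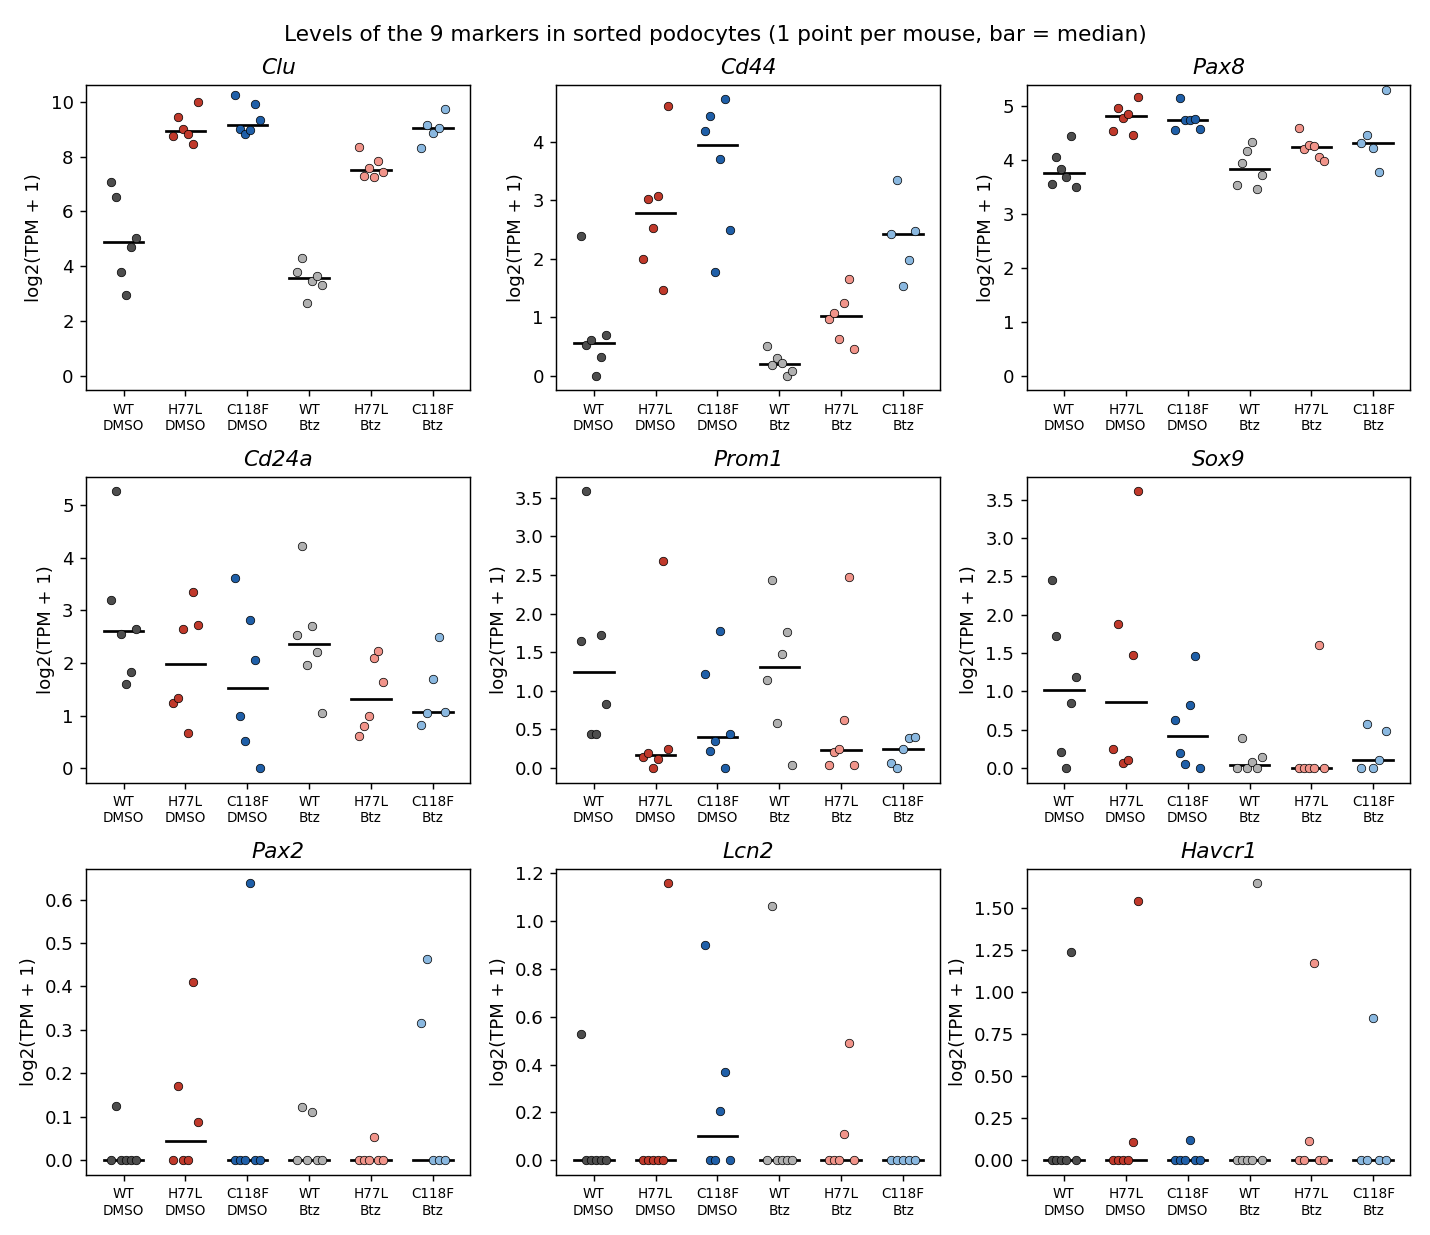
Level of each of the 9 genes as log2(TPM + 1) on the vertical axis (scales differ between panels), with the 6 groups on the horizontal axis, 1 point per mouse and a bar at the median. Clu in all knock-in mice (lowest 152 TPM) lies above all WT mice (highest 134 TPM), while Pax2, Lcn2 and Havcr1 lie at 0 in most mice.

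Depth and identity of the samples bear on all that follows. The reads estimated from the TPM values ranged from 5269234 to 24146197 per mouse with a median of 19165697, and the shallowest library was replicate 2 of bortezomib-treated C118F. Nphs1, which encodes the slit diaphragm protein nephrin, was between 113 and 323 TPM in all mice, whereas Ptprc, the pan-leukocyte marker, never exceeded 0.241 TPM. The summed level of 15 podocyte markers was 25568 to 41188 TPM in DMSO-treated WT mice, 7672 to 13043 TPM in DMSO-treated H77L mice and 7057 to 15384 TPM in DMSO-treated C118F mice. The WT and knock-in mice thus did not overlap in this sum. Of the 15 genes, 10 were lower in each line at limma adjusted p under 0.05, beside 22.4% of all genes tested in H77L and 16.6% in C118F, and 2 (Cd2ap and Kirrel1) were higher in H77L. In such bulk samples fewer cells of a type and less RNA per cell cannot be told apart. Lmx1b RNA, read from all of its alleles together, had a median of 71.5 TPM in WT, 120 TPM in H77L and 104 TPM in C118F mice under DMSO. It was higher than in WT by 0.78 on the log2(TPM + 1) scale in H77L (limma's adjusted p 0.000791) and differed by 0.41 in C118F (0.311), which is no check of the proteins.

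Clu lies on chromosome 14 (chr14:66190200-66218999, GRCm39, plus strand) and encodes clusterin, a secreted chaperone. In DMSO-treated WT mice it ranged from 6.78 to 134 TPM around a median of 28.4 TPM. DMSO-treated H77L mice held 350 to 1011 TPM (median 488 TPM). DMSO-treated C118F mice held 457 to 1207 TPM (median 578 TPM). Every knock-in mouse was therefore above every WT mouse. Here and below, the share of all genes tested whose groups did not overlap was not counted, so such separation has no background to be read against. The ratio of the medians was 17.2 for H77L and 20.3 for C118F.

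The difference in log2(TPM + 1) was 4.07 ± 0.56 (SE, n = 6 and 6) for H77L against WT, with an adjusted p of 5.76e-05 (limma, Benjamini-Hochberg over all genes tested). For C118F it was 4.37 ± 0.57 (SE, n = 6 and 6), with an adjusted p of 4.72e-05 in the same kind of fit. The WT mice were themselves far apart: their highest Clu value was 19.7 times their lowest, whereas this ratio was 2.89 in DMSO-treated H77L and 2.64 in DMSO-treated C118F mice.

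Under bortezomib the WT range was 5.28 to 18.6 TPM with a median of 10.8 TPM. Bortezomib-treated H77L mice held 152 to 330 TPM (median 181 TPM). The 5 bortezomib-treated C118F mice held 316, 469, 524, 570 and 863 TPM. All mice of both knock-in groups again exceeded all WT mice. Relative to bortezomib-treated WT mice, Clu was higher by 4.11 ± 0.23 (SE, n = 6 and 6) in H77L, with limma's adjusted p at 5.8e-09, and by 5.50 ± 0.27 (SE, n = 5 and 6) in C118F, with limma's adjusted p at 4.75e-09, all on the log2(TPM + 1) scale. In the order of median levels, DMSO-treated C118F, bortezomib-treated C118F and DMSO-treated H77L mice came first and overlapped. Bortezomib-treated H77L mice followed without overlap with either DMSO-treated knock-in group, though their highest mouse (330 TPM) passed the lowest bortezomib-treated C118F mouse (316 TPM), and DMSO-treated and bortezomib-treated WT mice came last and overlapped with each other.

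The other injury markers were close to the limit of detection. Lcn2 (chr2:32274645-32278264, minus strand), which encodes a secreted iron-siderophore carrier, had 0 reads in all 5 bortezomib-treated C118F mice. In DMSO-treated C118F mice, 3 of 6 had any read, and in every other group 1 or 2 of 6 did. The highest level of Lcn2 was 1.23 TPM, in replicate 6 of DMSO-treated H77L, and this rested on 19 reads.

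Havcr1 (chr11:46625907-46670405, plus strand) encodes a phosphatidylserine receptor that proximal tubule cells put on their surface after injury. It was above 0 in 1 mouse of each WT group, in 2 mice of each H77L group and in 1 mouse of each C118F group. Its highest level was 2.13 TPM from 28 reads, in replicate 5 of bortezomib-treated WT. Neither Lcn2 nor Havcr1 entered the tests, and in a fit without the filter on low values no adjusted p of either was under 0.05. In the 27 mice without a read of Lcn2, a count of 0 allows a level of up to 0.173 to 0.781 TPM (the worth of 3 reads), by counting error alone.

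Pax8 (chr2:24309418-24365617, minus strand) and Pax2 (chr19:44735057-44826703, plus strand) encode paired-box transcription factors of the developing nephron that parietal cells keep. Pax8 was present in every mouse. DMSO-treated WT mice held 10.3 to 20.8 TPM (median 12.6 TPM). DMSO-treated H77L mice held 21.0 to 35.1 TPM (median 27.2 TPM). DMSO-treated C118F mice held 22.5 to 34.6 TPM (median 25.7 TPM). The WT mice did not overlap with either knock-in line, although the highest WT mouse, at 20.8 TPM, lay just under the lowest H77L mouse, at 21.0 TPM. How common such separation was among all genes was not counted. The difference from WT in log2(TPM + 1) was 0.95 ± 0.17 (SE, n = 6 and 6) in H77L, with limma's adjusted p at 0.000479. It was 0.91 ± 0.17 (SE, n = 6 and 6) in C118F, with limma's adjusted p at 0.00123.

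With bortezomib the Pax8 groups overlapped. WT mice held 10.04 to 19.2 TPM (median 13.4 TPM). H77L mice held 14.9 to 23.2 TPM (median 17.8 TPM), and the 5 C118F mice held 12.7, 17.8, 18.8, 21.1 and 38.4 TPM. The differences from bortezomib-treated WT were 0.37 on the log2(TPM + 1) scale in H77L (95% confidence interval 0.03 to 0.71, limma's adjusted p 0.115) and 0.55 in C118F (0.04 to 1.07, limma's adjusted p 0.105), so neither passed. The C118F difference passed with all 35 mice in 1 fit (adjusted p 0.032 in limma) and without replicate 4 of bortezomib-treated C118F (0.0439), and the H77L difference without replicate 4 of bortezomib-treated WT (0.0454). In the order of medians both DMSO-treated knock-in groups stood first, both bortezomib-treated knock-in groups next and both WT groups last. Neighbours in this order overlapped, whereas DMSO-treated knock-in mice and DMSO-treated WT mice did not.

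Pax2 was nearly absent. It had 50 reads in all 35 mice together, reached 0.556 TPM at most and was above 0 in 10 mice. Of the parietal transcription factors, only Pax8 could therefore be compared between groups.

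Cd44 (chr2:102641486-102732010, minus strand) was low in WT podocytes. DMSO-treated WT mice held 0 to 4.23 TPM (median 0.477 TPM). DMSO-treated H77L mice held 1.76 to 23.4 TPM (median 5.95 TPM). DMSO-treated C118F mice held 2.42 to 25.6 TPM (median 14.5 TPM). The overlap with the knock-in lines came from a single WT animal, replicate 1, at 4.23 TPM, and the next WT mouse was at 0.629 TPM. Cd44 was higher than in WT by 2.02 ± 0.48 on the log2(TPM + 1) scale (SE, n = 6 and 6) in H77L, with limma's adjusted p at 0.00359. In C118F it was higher by 2.80 ± 0.50 (SE, n = 6 and 6), with limma's adjusted p at 0.000799. A pseudocount of 1 compresses changes of a gene this low, and the means differed by a ratio of 7.81 in H77L and 13.6 in C118F. In a fit that took the mouse number of the sample titles into account, the H77L difference no longer passed (1.43, limma's adjusted p 0.0942).

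Bortezomib-treated WT mice held 0 to 0.423 TPM of Cd44 (median 0.15 TPM). H77L mice under bortezomib held 0.371 to 2.14 TPM (median 1.03 TPM). The 5 C118F mice under bortezomib held 1.90, 2.96, 4.35, 4.53 and 9.16 TPM, all above the WT range. In C118F the difference from bortezomib-treated WT was 2.13 ± 0.27 on the log2(TPM + 1) scale (SE, n = 5 and 6), with limma's adjusted p at 4.49e-05. The H77L comparison could not be made within the filter, because neither group had every mouse above 1 TPM. Without the filter the difference was 0.79 on the same scale (limma's adjusted p 0.0139). Wherever Cd44 was tested against WT it had passed the filter only through the knock-in group. The filter thus favoured a difference in that direction, and these tests add no support for it.

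The sequences just upstream of Cd44 and Pax8 are shown because both genes were higher in both knock-in lines and LMX1B is a homeodomain factor whose DNA contacts centre on TAAT. They come from the RefSeq promoter table (GRCm38.p6), which lists 6 of the 9 genes, and run 5′ to 3′ over the 250 bases before the transcript start, on the minus strand at chr2:102901666-102901915 for Cd44 and chr2:24475600-24475849 for Pax8. Capitals mark CCAAT on either strand, which occurs in the Pax8 stretch only.
Cd44: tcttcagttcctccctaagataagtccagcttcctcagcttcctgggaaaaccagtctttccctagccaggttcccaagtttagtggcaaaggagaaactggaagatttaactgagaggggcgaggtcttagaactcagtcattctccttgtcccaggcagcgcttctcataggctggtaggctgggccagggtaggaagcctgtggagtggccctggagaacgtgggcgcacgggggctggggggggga
Pax8: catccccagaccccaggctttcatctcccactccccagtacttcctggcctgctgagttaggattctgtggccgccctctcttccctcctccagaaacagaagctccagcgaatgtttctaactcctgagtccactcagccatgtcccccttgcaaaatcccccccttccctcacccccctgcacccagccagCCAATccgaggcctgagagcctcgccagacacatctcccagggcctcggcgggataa
The palindrome TAATTA was in none of the 11 listed promoters of the 6 genes, searched over 300 bases on both strands, and 5.29% of all 32851 promoters in the table held it. With so low a share its absence says little. The shorter core TAAT was not counted over all promoters. It occurs on neither strand of the 250 bases printed for Cd44 and Pax8, but it does occur in other listed promoters, such as that of Lcn2. Without its share over all promoters, its absence from these stretches is not read further. CCAAT was found at -57 in the Pax8 promoter and at -35 in 1 of the Prom1 promoters, and 37.4% of all promoters held it on either strand. These are matches of letters and not binding sites.

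Cd24a passed no test with all mice of the groups, and Prom1 and Sox9 were too low to be tested. Cd24a (chr10:43454280-43460264, plus strand) encodes a small glycoprotein anchored to the cell surface. Its range was 2.02 to 37.7 TPM in DMSO-treated WT mice (median 5.07 TPM). It was 0.585 to 9.18 TPM in DMSO-treated H77L (median 3.39 TPM) and 0 to 11.4 TPM in DMSO-treated C118F mice (median 2.09 TPM). Under bortezomib the medians were 4.19 TPM in WT, 1.54 TPM in H77L and 1.10 TPM in C118F. All groups overlapped, the gene entered the tests only through the WT groups, and the 4 differences between knock-in and WT ran from -1.18 to -0.86 on the log2(TPM + 1) scale with limma's adjusted p from 0.0896 to 0.244. Without replicate 6 of bortezomib-treated WT it passed in H77L (-1.33, adjusted p 0.0207 in limma) and in C118F (-1.30, 0.0288) under bortezomib, in tests it entered only through the WT mice.

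Prom1 (chr5:44150962-44259395, minus strand), which encodes the pentaspan membrane protein CD133, had medians of 1.46 TPM in DMSO-treated WT and 1.49 TPM in bortezomib-treated WT mice. In the knock-in groups the medians lay between 0.126 and 0.32 TPM. Single mice stood out, with 11.03 TPM in replicate 2 of DMSO-treated WT, 5.41 TPM in replicate 5 of DMSO-treated H77L and 4.55 TPM in replicate 5 of bortezomib-treated H77L. Sox9 (chr11:112673009-112678586, plus strand), a transcription factor of nephron precursors and regenerating tubules, had medians of 1.04, 0.978 and 0.346 TPM in WT, H77L and C118F mice under DMSO. Under bortezomib its medians were 0.0261, 0 and 0.0757 TPM in the same order. Its highest value was 11.2 TPM, in replicate 6 of DMSO-treated H77L. Neither gene entered the tests, and without the filter no adjusted p of either was under 0.05.

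Cd24a and Prom1 are also genes of ordinary tubule cells, and most of their highest mice were high in tubule markers. Of the 35 mice, 3 had over 900 TPM summed over 22 markers of proximal and distal tubule and collecting duct (from 1155 TPM upward, with the next mouse at 633 TPM), and these 3 held at least 9.18 TPM of Cd24a and 4.42 TPM of Prom1. In replicate 2 of DMSO-treated WT, where both genes were highest, Umod, the uromodulin gene of the thick ascending limb, stood at 416 TPM. The sum of the 22 markers ran from 131 to 2804 TPM in DMSO-treated WT, from 36.2 to 1155 TPM in DMSO-treated H77L and from 38 to 385 TPM in DMSO-treated C118F mice. Under bortezomib it ran from 113 to 1213 TPM in WT, from 60 to 289 TPM in H77L and from 35.4 to 110 TPM in C118F mice, and the part of these transcripts in the levels of Cd24a and Prom1 was not tested.

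**Figure D2:**
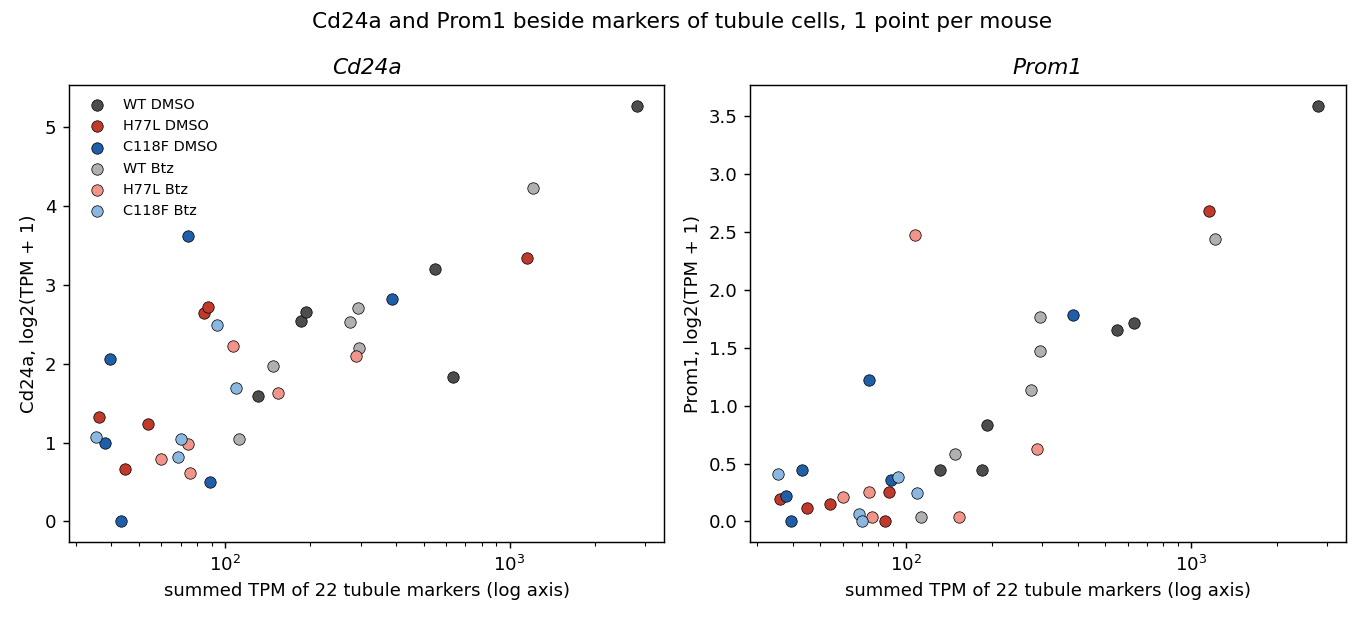
Cd24a (left) and Prom1 (right) as log2(TPM + 1) on the vertical axis against the summed TPM of 22 tubule markers on a logarithmic horizontal axis, 1 point per mouse, coloured by group. The 3 mice beyond 900 TPM of tubule markers are among the highest in both panels, and replicate 5 of bortezomib-treated H77L, at 4.55 TPM of Prom1, and replicate 1 of DMSO-treated C118F, at 11.4 TPM of Cd24a, are high without them.

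Markers of other cell types also differed between mice and groups, and they are set beside the remaining markers here without a test of whether they went together. Replicate 1 of DMSO-treated WT, the highest WT mouse for Clu (134 TPM), Cd44 (4.23 TPM) and Sox9 (4.46 TPM), had 347 TPM summed over 13 leukocyte markers, of which Lyz2 made up 285 TPM and Ptprc 0.241 TPM, whereas the other mice of its group had 5.96 to 73.9 TPM. In DMSO-treated H77L, replicate 6 was the highest mouse for 6 of the 9 genes and had the smallest podocyte sum of its group (7672 TPM), with 73.2 TPM over the proximal tubule markers (others of the group 32.5 to 963 TPM). Its leukocyte sum was 35.2 TPM, where 4 of the others had 11.9 to 16.5 TPM and replicate 5 had 35.3 TPM. Its Cd68, a macrophage marker, was the highest of the group at 18.3 TPM. Ptprc and Lyz2 were also highest in this mouse, each with replicate 5 next, whereas some other genes of the leukocyte list were not. Adgre1 had 0 reads in this mouse, as in all others of the group except replicate 5. Itgam, S100a8 and S100a9 were at 0 TPM in every mouse of the group. Lyz2 was at 9.05 TPM in replicate 6, at 8.80 TPM in replicate 5 and at 0 to 0.446 TPM in the others. Ptprc was at 0.204 TPM (22 reads) in replicate 6, at 0.136 TPM (14 reads) in replicate 5 and at 0 TPM in the others. Mesangial and stromal markers summed to 17.4 to 41.8 TPM in DMSO-treated WT, 158 to 563 TPM in DMSO-treated H77L and 69.7 to 2295 TPM in DMSO-treated C118F mice, and the top value, in replicate 1, was mostly Ren1 (2166 TPM). Their part in the results was not tested. A further fit left out 5 mice high in markers of other cells, a choice made after seeing the data. They were replicates 1 and 2 of DMSO-treated WT, 5 of DMSO-treated H77L, 1 of DMSO-treated C118F and 2 of bortezomib-treated WT. In this fit Clu was higher than in WT by 5.09 in DMSO-treated H77L and 5.09 in DMSO-treated C118F mice. Cd44 was higher by 2.63 and 3.02 and Pax8 by 0.99 and 0.93 (log2(TPM + 1) scale, all with limma's adjusted p of at most 0.00598). The DMSO-treated WT mice left out were the highest of their group for Clu (134 and 90.8 TPM), and replicate 1 also for Cd44. Replicate 5 was the lowest DMSO-treated H77L mouse for Clu, Cd44 and Pax8, whereas replicate 6 was kept. Leaving these mice out widened the H77L differences, so this fit cannot show what part other cells had in them.

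Counted over the list, the knock-in lines differed from WT under DMSO as follows. By the study's rule (adjusted p under 0.001 and a log2 difference above 2), Clu was called in H77L, 1 of the 9 genes, where 1.62% of the 10964 genes tested were called higher. In C118F, Clu was called, where 1.63% of the 10899 genes tested were called higher, and Cd44 met the same cutoffs, which makes 2 of the 9 genes. At adjusted p under 0.05, Clu, Cd44 and Pax8 were called higher in both lines, 3 of the 9 genes, beside 22.4% of all genes tested in H77L and 13.7% in C118F. The strict call of Cd44 in C118F was lost in 9 of the 12 fits that each left out 1 mouse, and in H77L Cd44 was called as well without replicate 1 of DMSO-treated WT (2.35, limma's adjusted p 0.000705). Because Cd44 entered only through the knock-in mice, its calls add nothing to the count read against these shares. Only 4 of the 9 genes entered these tests, and both comparisons share the same WT mice.

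Under bortezomib the strict rule called Clu in H77L, where 0.925% of all genes tested were called higher, and Clu and, with the same limit, Cd44 in C118F, where 1.52% were. At adjusted p under 0.05 the same genes of the list were called, 1 in H77L beside 12.5% of all genes and 2 in C118F beside 15.1% of all genes. The Cd44 call by the strict rule in C118F rested on replicate 2, the shallowest library and the highest for Cd44 at 9.16 TPM: without it the difference was 1.89 on the log2 scale. These 2 comparisons share the bortezomib-treated WT mice.

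**Figure D3:**
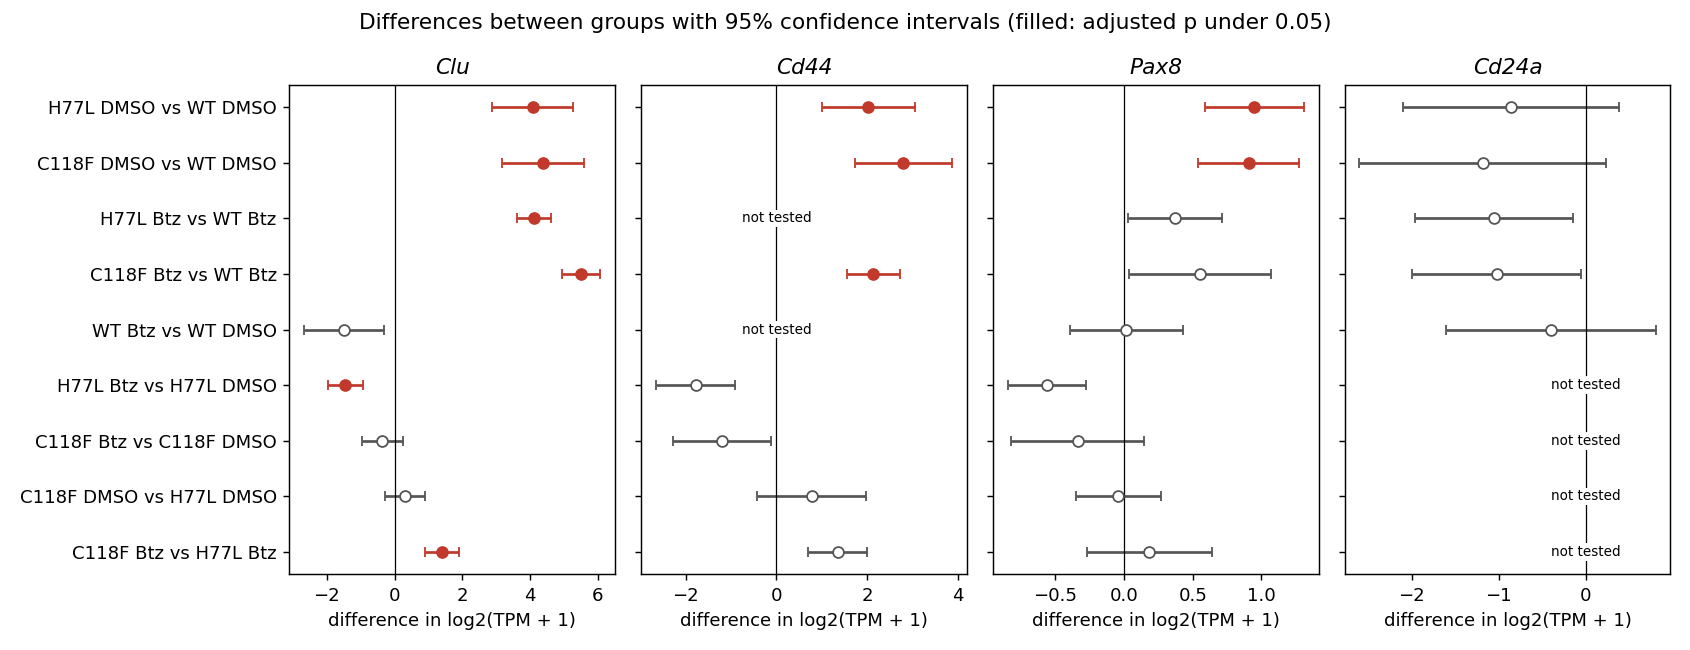
Differences between groups in log2(TPM + 1) for Clu, Cd44, Pax8 and Cd24a on the horizontal axis (scales differ between panels), 1 row per comparison, with 95% confidence intervals and filled points where limma's adjusted p was under 0.05. Clu is filled in all 4 rows of knock-in against WT, from 4.07 to 5.50, and Pax8 only in the 2 rows under DMSO.

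Clu was lower under bortezomib than under DMSO in H77L podocytes. The H77L mice under bortezomib (152 to 330 TPM) did not overlap with those under DMSO (350 to 1011 TPM), and the level fell by 1.45 on the log2(TPM + 1) scale (SE 0.24, n = 6 and 6, limma's adjusted p 0.0203). Clu was the only gene of the list called, where 0.74% of the 10813 genes tested were called lower. This share ran from 0% to 1.59% when 1 mouse was left out. Cd44 differed by -1.78 (95% confidence interval -2.65 to -0.90, limma's adjusted p 0.0503), but it entered this test only through the DMSO-treated mice, where it was high. The filter thus favoured that direction, and this test of Cd44 adds no support for it. Pax8 differed by -0.56 (-0.85 to -0.28, limma's adjusted p 0.0533) and missed the threshold. It passed without replicate 5 of DMSO-treated H77L, the mouse rich in tubule markers (-0.63, adjusted p 0.0321 in limma), without replicate 1 of that group (0.0455) and without replicate 1 of bortezomib-treated H77L (0.0282). The Clu call was lost without replicate 2, 3, 4 or 6 of bortezomib-treated H77L, where limma's adjusted p ran from 0.0591 to 0.0833, and also without the filter (0.0925) and with all 35 mice in 1 fit (0.116).

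In C118F podocytes no gene of the list passed between bortezomib and DMSO. Clu differed by -0.36 (95% confidence interval -0.97 to 0.25), Cd44 by -1.20 (-2.28 to -0.12) and Pax8 by -0.34 (-0.82 to 0.15) on the log2(TPM + 1) scale, with limma's adjusted p from 0.813 to 0.823. Of the 10814 genes tested, 0% were called by limma at adjusted p under 0.05, 634 had an unadjusted p under 0.05, and limma voom on recovered reads called 0. WT podocytes gave a like count, with 0% of 10659 genes called, 923 at an unadjusted p under 0.05 and 0 by voom. Clu was lower under bortezomib in WT mice too, by 1.49 in the log2 estimate, but the groups overlapped and limma's adjusted p was 0.56.

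The responses to bortezomib were compared between genotypes by an interaction term. For Clu the H77L response differed from the WT response by 0.04 on the log2(TPM + 1) scale, and from the C118F response by -1.09, with limma's adjusted p of 0.983 and 0.65. Cd44 differed by -1.24 between H77L and WT (adjusted p 0.232 in limma) and Pax8 by -0.58 (adjusted p 0.196 in limma). In all 3 interaction fits limma called 0% of genes, with 2037 (H77L and WT), 560 (C118F and WT) and 840 (H77L and C118F) genes at an unadjusted p under 0.05 and 0 by voom. A different response of Clu in H77L mice than in the other genotypes was therefore not shown.

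Between the knock-in lines, DMSO-treated mice passed no test in the list: the differences of C118F from H77L were 0.30 for Clu (95% confidence interval -0.30 to 0.90), 0.77 for Cd44 (-0.42 to 1.96) and -0.04 for Pax8 (-0.35 to 0.27), with limma's adjusted p from 0.931 to 0.976. Of the 10809 genes tested, 0% were called, with 416 at an unadjusted p under 0.05 and 0 by voom. Under bortezomib Clu was higher in C118F than in H77L by 1.40 ± 0.23 on the log2(TPM + 1) scale (SE, n = 5 and 6, limma's adjusted p 0.014), where 0.713% of the 10803 genes tested were called higher (0.277% to 1.88% with 1 mouse left out). Cd44 differed by 1.35 (95% confidence interval 0.70 to 2.00, limma's adjusted p 0.0502), in a test that it entered only through the C118F mice, where it was high. The Clu call between the lines was lost without the filter (0.0732), with all 35 mice in 1 fit (0.197) and in a fit that took the mouse number of the sample titles into account (0.0758).

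Genes that share a role with the 9 markers were described from lists of known members, and these lists include markers of the 9 themselves. Pax8 is counted in the parietal identity and nephron development lists, Cd44 in the activation list and Clu in the injury list. Their calls are thus counted again here and are no separate result. Of 9 parietal identity genes, 5 were tested in DMSO-treated H77L mice and 3 were higher, 0 lower. The median difference was 0.95, which is the value of Pax8 itself, against -0.01 over all genes tested. Beside Pax8 these were Cldn1, a tight junction claudin of parietal cells, at 2.01 ± 0.19 (SE) in H77L and 1.70 ± 0.21 in C118F, and the scaffold gene Akap12, at 2.06 ± 0.21 and 1.43 ± 0.19. In C118F the same 3 of 5 were higher, with a median of 0.91, again the value of Pax8, against -0.06 over all genes. The differences of Cldn1 and Akap12 passed under bortezomib too, at 1.82 and 1.21 in H77L and at 2.22 and 1.28 in C118F.

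Among 15 genes of parietal activation and progenitors, 8 were tested under DMSO and 5 were higher in each line, 0 lower (medians 0.54 in H77L and 0.43 in C118F). Hbegf, an EGF receptor ligand, was higher by 2.83 ± 0.27 in H77L and 2.76 ± 0.22 in C118F, and Mif, a cytokine whose receptor complex includes CD44, by 0.39 ± 0.15 and 0.50 ± 0.15. Cd44 in both lines and Cd9 in C118F were tested only through the knock-in mice, where they were high.

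The epithelial injury list held 24 genes, of which 14 were tested, with 9 higher and 2 lower in each line under DMSO (medians 1.23 in H77L and 1.01 in C118F). The calcium-binding protein gene S100a6 was higher by 3.86 ± 0.45 in H77L and 4.55 ± 0.43 in C118F. Lgals3, which encodes galectin-3, differed by 4.73 ± 0.84 and 5.40 ± 0.80, but like Gdf15 it entered the tests only through the knock-in mice (lowest WT mouse 0 TPM). For 2 of the 9 higher genes the filter thus favoured that direction, and their calls add no support. The lower genes were the keratin Krt7, at -1.78 ± 0.28 and -2.09 ± 0.21, and Anxa2, at -0.58 ± 0.14 and -0.41 ± 0.14. In bortezomib-treated against DMSO-treated H77L mice, Lgals3 fell by 3.52 and S100a6 by 1.95 on the log2 scale, with limma's adjusted p at 0.0184 and 0.0352. These calls were lost in 4 (Lgals3: without replicate 2, 3, 4 or 6 of bortezomib-treated H77L) and 7 (S100a6: also without its replicate 5 and replicates 2 and 4 of DMSO-treated H77L) of the 12 fits that each left out 1 mouse, with adjusted p up to 0.0769 and 0.0879, both were lost without the filter, and Lgals3 also by voom.

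Of 19 nephron development genes 8 were tested, with 3 higher and 2 lower in H77L and 3 higher and 1 lower in C118F (medians 0.14 and -0.04). Wnt4, a signal of the mesenchyme-to-epithelium conversion, was higher by 2.49 ± 0.21 and 2.46 ± 0.27 and Sox4 by 2.19 ± 0.28 and 2.12 ± 0.30, whereas Wt1, which podocytes also need, was at -0.59 ± 0.16 and -0.70 ± 0.23. Of 20 ligands, receptors and partners of the 9 markers, 12 were tested in H77L with 6 higher and 1 lower, and 11 in C118F with 2 higher and 0 lower (medians 0.37 and 0.04). Of the 6 higher genes in H77L, 1, Lrp8, passed the filter through only 1 of the groups compared, so its call adds no support. Msn, which encodes moesin, a linker of CD44 to actin, was higher by 1.41 ± 0.15 and 1.33 ± 0.10. All these list counts stand beside 22.4% of all genes called higher in H77L and 13.7% in C118F, and beside 22.4% called lower in H77L and 16.6% in C118F. The 2 lower genes of 14 in the injury list are thus no larger a share than among all genes.

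**Figure D4:**
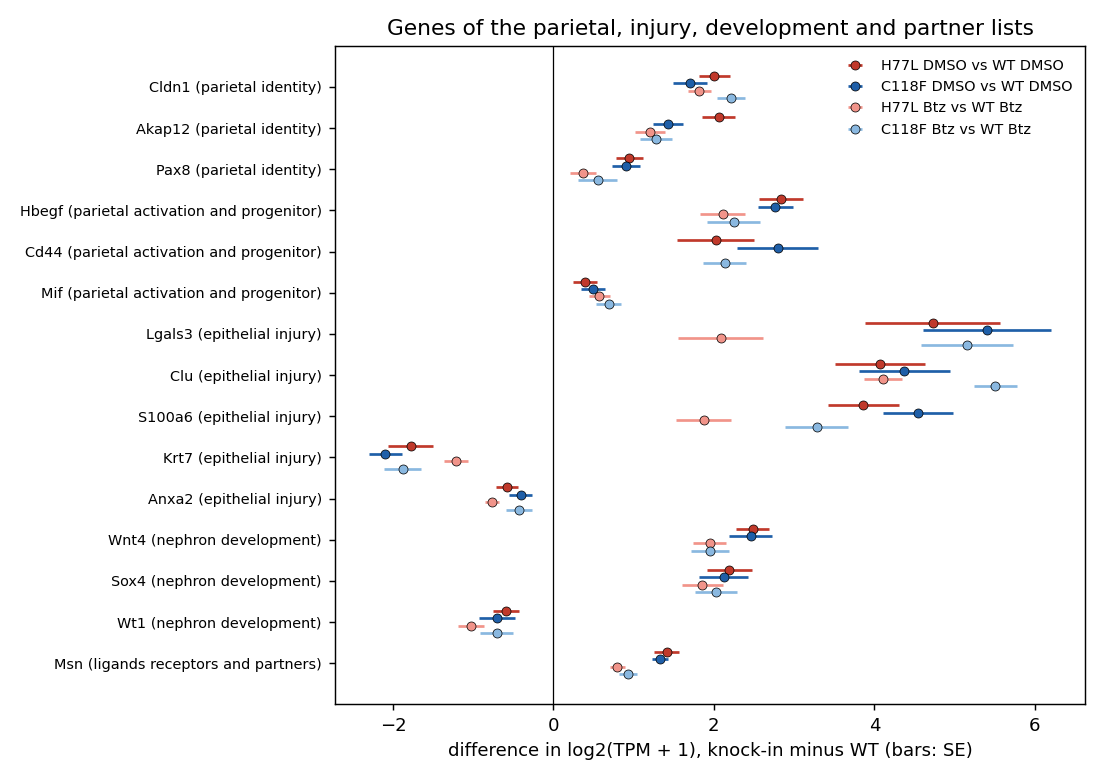
Differences between knock-in and WT in log2(TPM + 1) with their standard errors on the horizontal axis, for up to 3 genes per list and direction that passed in both lines under DMSO. Lgals3, Clu and S100a6 of the injury list lie between 3.86 and 5.40 under DMSO (Lgals3, like Cd44, was tested only through the knock-in mice, where it was high), and Krt7, Anxa2 and Wt1 lie below 0.

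Across the 35 mice the genes whose TPM ranked most like Clu included Ctsb (Spearman's rho 0.949) and Tnfrsf1a (0.946), out of 11305 genes compared. For Cd44 they were Col5a3 (0.952), Capg (0.951) and Shisa4 (0.943). Pax8 was followed by L1cam (0.902), 4930523C07Rik (0.899) and St8sia2 (0.892), and Cd24a by Ly6e (0.879), Ly6a (0.833) and Adgrg1 (0.809). The 35 points share genotype, treatment and sort, so these values are a description without a test. Part of the exons of Cd44 (3.06%), Pax8 (9.42%), Sox9 (13%), Prom1 and Cd24a (4.26%) is shared with a gene on the opposite strand, and whether the libraries kept strand is not stated, so reads there cannot be assigned with certainty.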

How the data were processed

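Podocytes of 35 mice were profiled by single-end sequencing of polyadenylated RNA. Per the submitters' notes and the study's methods, the authors trimmed reads with Trim Galore 0.6.7, aligned them with STAR to GRCm39, counted them per gene with featureCounts 1.6.3 on Ensembl annotation and deposited TPM, which scales counts by gene length and by the total of the sample. Multimapping reads were placed at random. For 99.8% of 23943 expressed genes, TPM values above 0 could be written as whole multiples of 1 read (tolerance 0.001 reads). This held at the annotated gene length for 4492 genes and only at a length found by search for 19413. Read numbers and depth obtained in this way are estimates. Such reads carry no molecular identifiers, so limits derived from them cover counting error only.

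Genes above 1 TPM in every mouse of at least 1 compared group were tested on log2(TPM + 1) with limma 3.58.1 (R 4.3.3, trend on, two-sided, moderated over all genes, Benjamini-Hochberg). Fold changes on this scale understate changes of low genes. Calls were adjusted p under 0.05, and against WT also the study's cutoffs of adjusted p under 0.001 and a log2 difference over 2. The members and lists were chosen with earlier results of these data known. All 9 members were named in every comparison, and from each list at most 3 genes per direction passing at 0.05 in both DMSO-treated lines, by largest mean difference. For likeness the 3 highest rank correlations were named, except 1 gene that is not reported here. Groups came from the sample labels. Mice were treated as replicates, numbered in accession order. The fit was tested on simulated data. Alternatives were a pseudocount of 0.1, no filter, median-of-ratios scaling, all 35 mice in 1 fit, the mouse number as a covariate and each mouse left out. Voom on recovered reads and a fit without 5 mice with conspicuous markers of other cells were chosen after seeing the data. Coordinates are from GENCODE vM39 (GRCm39), in which 32776 of 33292 identifiers were found.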

Additional observations from a re-analysis of the deposited data

Results flagged for a closer look

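Of 53 pairs of a gene and a group with any TPM above 0, 19 had 1 mouse whose gap to its nearest neighbour was above Dixon's 95% critical value for the group's range. Chance flags about 1 in 20 groups, and 18 of the 19 pairs had a group median under 1 TPM, where most mice sat at or near 0.

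The exception was Pax8 in DMSO-treated C118F mice, where replicate 2 reached 34.6 TPM. In DMSO-treated WT mice, replicate 1 stood apart for Cd44 (4.23 TPM) and Lcn2 (0.44 TPM), replicate 2 for Pax2 (0.0906 TPM) and replicate 5 for Havcr1 (1.36 TPM). In DMSO-treated H77L mice, replicate 5 stood apart for Prom1 (5.41 TPM) and replicate 6 for Lcn2 (1.23 TPM) and Havcr1 (1.91 TPM). Replicate 4 of DMSO-treated C118F stood apart for Pax2 (0.556 TPM) and Havcr1 (0.0868 TPM). Among bortezomib-treated WT mice, replicate 2 was far from the others for Sox9 (0.307 TPM) and Lcn2 (1.09 TPM), and replicate 5 for Havcr1 (2.13 TPM). Among bortezomib-treated H77L mice, replicate 5 was far from the others for Sox9 (2.05 TPM), Prom1 (4.55 TPM) and Lcn2 (0.404 TPM), and replicate 4 for Pax2 (0.0381 TPM) and Havcr1 (1.25 TPM). In bortezomib-treated C118F mice it was replicate 3 for Havcr1 (0.794 TPM).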

How the results depend on the processing

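At adjusted p under 0.05, Clu stayed higher in all 4 comparisons of a knock-in line with WT and Pax8 in both under DMSO, in every alternative run. Cd44 lost its call in DMSO-treated H77L mice with the mouse number as a term (adjusted p 0.0942) and kept it in the other alternatives and comparisons in which it was called against WT. Under DMSO the strict rule called 1 gene in H77L against WT. It called 2 with all 35 mice in 1 fit and 2 without the 5 mice high in markers of other cells, 0 with the mouse number as a term, 3 at adjusted p under 0.05 with any fold, and 1 to 2 with single mice left out. In C118F against WT it called 2, but 1 with a pseudocount of 0.1, 1 without the filter, 1 with the mouse number, 1 by voom, 1 without the 5 mice and 1 to 2 with single mice left out. Under bortezomib H77L against WT had 1 call at adjusted p under 0.05, 2 without the filter and 1 to 2 with single mice left out, and the strict count in C118F against WT, 2, was 1 to 2. The calls of bortezomib against DMSO in H77L, 1 in number, became 2 with a pseudocount of 0.1, 0 without the filter, 3 with median-of-ratios scaling, 0 with all 35 mice, 3 with the mouse number, 3 without the 5 mice and 0 to 3 with single mice left out. For C118F against H77L under bortezomib the count of 1 became 0 without the filter, 0 with all 35 mice, 2 by voom and 1 to 2 with single mice left out. Where Cd44 makes up these counts it had entered the test only through the group where it was high. The cause was not tested.

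Changes of sign concerned differences that passed no test. Pax8 between bortezomib and DMSO in WT was -0.0056 by voom, -0.019 without the 5 mice and -0.077 to 0.14 with single mice left out, and Cd24a there was 0.10 with the mouse number and -0.76 to 0.080. Pax8 between C118F and H77L was 0.0032 by voom and -0.12 to 0.035 under DMSO, and -0.036 to 0.34 under bortezomib. In the interactions, Clu (H77L and WT) was -0.83 without the 5 mice and -0.37 to 0.45, Cd44 (C118F and WT) was 0.14 by voom, and Cd24a was -0.68 to 0.16 (H77L and WT) and -0.33 to 0.55 (C118F and WT). No paired analysis was possible because the labels give the groups no shared replicate numbers. Depth limits Pax2, Lcn2 and Havcr1, which rest on few reads.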
